A study of Mus musculus with 25 samples.

Results

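Sorts of CD11b+ cells, taken from mouse kidneys by Ly6C, held RNA of the proximal tubule, a nephron segment that lies around such cells. The series was read here through 34 genes of that segment. They were chosen by name: 3 for protein uptake and its scaffold, 6 for sodium-coupled and anion transport, 3 for organic ion transport, 3 for water, fatty acid and amino acid transport, 5 secreted or matrix proteins, 7 for xenobiotic and acyl metabolism, 6 for carbon and amino acid metabolism, and Ttc36. The choice was made with earlier results of these data known, so the shares of all genes given beside their counts are no independent test. For each gene the probe set with the highest mean deposited log2 value over 21 arrays was used, 34 of the 18194 genes that the array reads through a probe set of 1 gene. All 34 were on the array, and all 34 passed the filter for testing, which took a gene once 2 or more arrays of any 1 group called it present (P, as against M, marginal, and A, absent). 8 of them (Cubn, Slc22a8, Slc22a2, Tinag, Aqp1, Igfbp1, Hpd and Pdzk1) passed through sham groups only, so a lower value after injury was built into their passing, and 1 passed through an injured group only.

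The mice were C57BL/6 males of 8 to 10 weeks, and all carried the same surgery apart from the clamp: both renal pedicles were clamped for 28 min and released, or the sham operation left them unclamped. Per the labels, Ly6C High and Intermediate cells were collected at 4 h (3 arrays each, mice 30, 32 and 33), Intermediate cells at 24 h (3 arrays, mice 7, 8 and 9), Intermediate and Low cells at 9 days (3 arrays each, mice 8, 9 and 13), and High, Intermediate and Low cells from sham mice 1 and 2 (2 arrays each). The labels give no time after surgery for the sham mice. The Intermediate gate was the one sampled at sham, 4 h, 24 h and 9 days, so it carries the time course.

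Proximal tubule cells reclaim most of what the glomerulus filters: megalin and cubilin take up protein, sodium-coupled carriers take up glucose, phosphate and organic acids, and the organic ion transporters secrete drugs and metabolites. The cells also make glucose, break down amino acids and conjugate foreign compounds. The segment is among the parts of the nephron most sensitive to ischemia, and its injured cells shed their brush border and debris into the lumen and stroma. None of the 34 genes defines a myeloid cell, although Slc7a7, Fbp1, Gatm and Ass1 are also known from monocytes or macrophages. In these bulk samples, fewer tubule cells or fragments in a sort and less RNA in each of them cannot be told apart.

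Arrays differed in yield, the share of all 45101 probe sets called P, from 1.99% on sham High replicate 1 to 40.0% on sham Low replicate 1. Sham High replicate 1 (1.99%) and 9 day Intermediate replicates 8 and 13 (3.29% and 4.67%) stood apart as arrays of low yield. A second feature set 3 sham arrays apart, the signal ratio of the 3' to the 5' control probe set of Gapdh, which rises as RNA is truncated. It was 431 on sham Intermediate replicate 1, 298 on sham High replicate 1 and 28.3 on sham High replicate 2. The 15 injured arrays read 0.923 to 19.7. Within that range were sham Intermediate replicate 2 (3.93) and sham Low replicates 1 and 2 (1.85 and 2.82). Of 12 myeloid markers, 10 to 12 were called P on each of the other arrays, 1 on sham High replicate 1 and 7 to 11 in 9 day Intermediate. Itgam, which encodes CD11b, was P on 11 of 21 arrays. A description line of 4 h High replicate 30 names 9 days, and the array was kept in the group its source label gives. The 3 sham 58 High arrays, whose label does not say whether they are separate mice, and 1 reference RNA array stayed out of the groups. Those sham 58 arrays had yields of 29.3% to 33.6% yet 11 to 21 members P, with 0.0590% to 0.0701% of the summed gene signal in the members.

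Fewer of the genes were called P on the later Intermediate arrays. In the Intermediate gate 29 and 33 of the 34 genes were P on the sham arrays, 22, 26 and 15 at 4 h, 14, 3 and 7 at 24 h, and 0, 6 and 0 at 9 days. P on every array of the group were 29 genes in sham, 14 at 4 h, 2 at 24 h and 0 at 9 days. In the Low gate 32 and 29 genes were P in sham and 5, 11 and 13 at 9 days. The High gate held 1 and 27 in sham and 23, 20 and 21 at 4 h.

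The yields beside these counts were as follows, and the part of yield in them was not tested. At 24 h the yields were 19.2%, 10.1% and 11.4% on the arrays with 14, 3 and 7 genes P. Sham Intermediate replicate 1 had 29 at a yield of 15.9% and sham High replicate 2 had 27 at 12.9%. The 9 day Low arrays, at 25.3% to 37.3%, had 5 to 13 against 29 and 32 in sham Low at 27.4% and 40.0%. In 9 day Intermediate the 6 genes P were all on replicate 9, at a yield of 25.5%: Slc13a3, Kap, Cyp4b1, Gatm, Acy3 and Ass1.

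**Figure D1:**
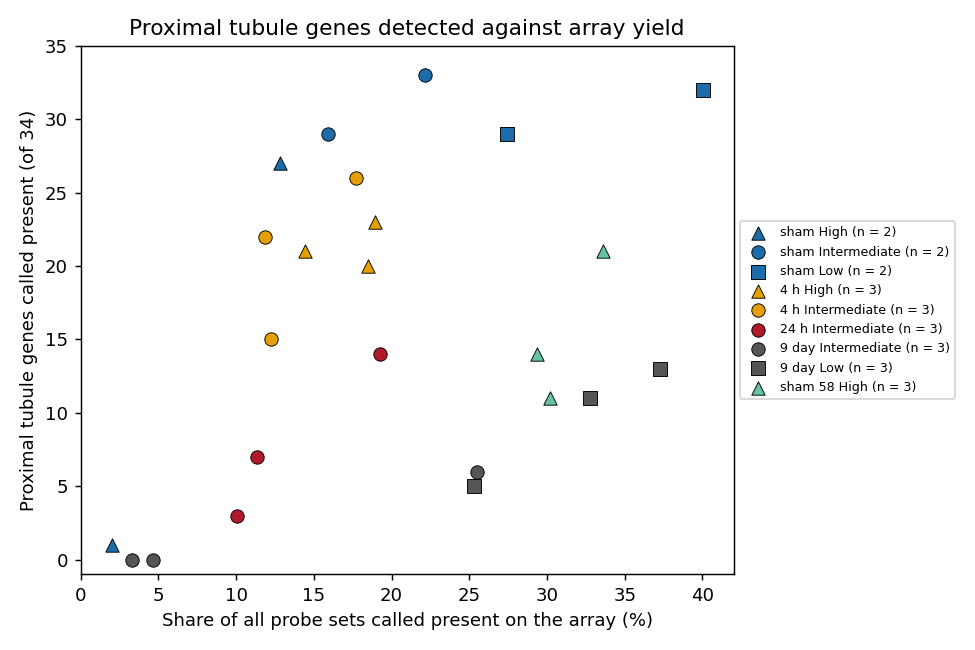
Number of the 34 proximal tubule genes called P (y axis) against the share of all probe sets called P (x axis, %), 1 point per array, coloured by time and shaped by gate, with the 3 sham 58 arrays added. At yields of 10% to 20% the sham and 4 h arrays held 15 to 29 genes and the 24 h arrays 3 to 14.

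The share of the summed gene signal that fell in the 34 genes followed the same order. It was 1.01% on both sham Intermediate arrays, 0.973%, 0.536% and 0.522% at 4 h, and 0.218%, 0.101% and 0.155% at 24 h. In the 9 day gates it was 0.0143% to 0.0373% (Intermediate) and 0.0171% to 0.0731% (Low), against 0.388% and 0.389% in sham Low. Not every sham array was high: sham High held 0.0578% and 0.773%, and the sham 58 High arrays 0.0590% to 0.0701%. Without Kap and Spink1 the other 32 genes took 0.446% and 0.631% in sham Intermediate, 0.108% to 0.360% at 4 h and 0.00439% to 0.0328% at 24 h. At 9 days they took 0.0117% to 0.0365% in Intermediate and 0.00625% to 0.0386% in Low, ranges that overlapped the one at 24 h. In 9 day Intermediate, replicates 8 (0.0365%) and 13 (0.0140%) had 0 of the 34 genes P. Their shares are thus signal of genes not called P, and do not show whether the loss went on after 24 h. Kap and Spink1 together took 0.375% and 0.560% in sham and 0.0969% to 0.185% at 24 h. Their 9 day shares were 0.000237% to 0.00877% (Intermediate) and 0.0108% to 0.0462% (Low).

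**Figure D2:**
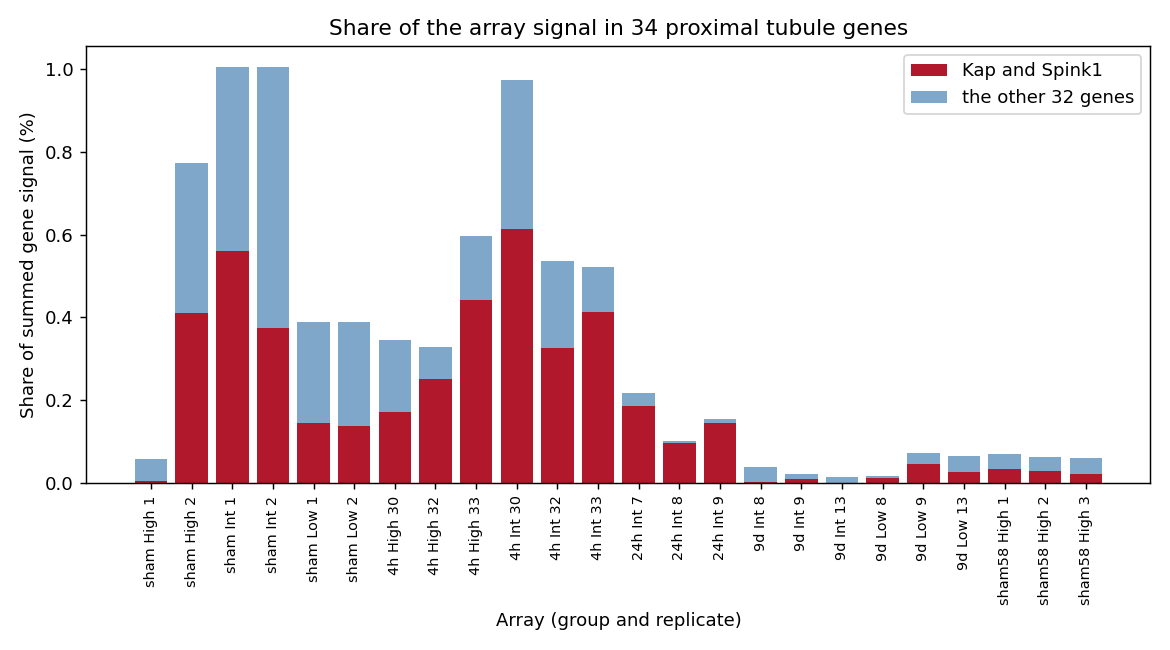
Share of each array's summed gene signal (y axis, %) in Kap and Spink1 (red) and in the other 32 genes (blue), 1 bar per array; the values are the authors' deposited linear signals. The bars of the 2 sham Intermediate arrays reach 1.01%, those at 24 h 0.101% to 0.218%, and those at 9 days stay at or under 0.0731%. The sham 58 High arrays, in no group, are drawn last and reach 0.0590% to 0.0701%, below every 24 h bar.

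Each gene was then compared between groups with limma, fitted to the log2 values of 8341 genes and adjusted by Benjamini-Hochberg over all of them; a gene is called at an adjusted p under 0.05. Against sham Intermediate, 5 of the 34 genes were called lower at 4 h (0.216% of all genes tested were), 7 at 24 h (0.42%) and 13 at 9 days (0.671%). Of these, 4 of the 5, 3 of the 7 and 3 of the 13 were among the 8 genes that passed the filter through sham groups only. Calls of those 8 are no support for a loss. The other 26 genes gave 1 (Lrp2), 4 and 10 calls. Lrp2 at 4 h and the 4 at 24 h (Lrp2, Slc5a12, Slc17a1 and Ces1f) were P on no array of the injured group compared. No member passed through 9 day Intermediate. All these genes passed through groups where they were higher, so a lower value was partly built into their calls too. No member was called higher in any of the 10 comparisons. These 3 comparisons share the same 2 sham arrays. The median log2 difference of the 34 genes was -1.58 at 4 h, -4.39 at 24 h and -5.73 at 9 days, beside medians of 0.12, 0.15 and 0.14 over all 18194 genes. Over the 8341 genes tested, which like the 34 passed the filter, the medians were -0.09, -0.07 and -0.45. For the 26 genes alone the median was -0.75, -4.37 and -6.00. Values lay below every sham Intermediate value for 15, 30 and 30 of the 34 genes, against 8.33%, 8.88% and 9.1% of all genes; 8, 22 and 22 of them were among the 26. Above both sham values lay 1, 0 and 0 of the 34, against 13.1%, 13.3% and 8.67%.

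From 4 h to 24 h in the same gate, 3 genes were called lower (0.0599% of genes tested), the median difference was -2.35, and 16 genes lay lower without overlap and 0 higher, against 5.59% and 5.4% of all genes. The 3 called genes, Slc17a1, Ugt2b38 and Cyp2d12, were P on no 24 h array. They passed the filter through sham and 4 h groups, so a lower 24 h value was partly built in. From 24 h to 9 days, 1 gene was called lower (0.36%) and 0 higher (0.024%), the median was -0.07, and 4 genes lay lower and 1 higher without overlap (5.38% and 3.45% of all genes). The moderated F test over sham, 4 h, 24 h and 9 days called 16 of the 34 genes, with 1.02% of all genes tested called. They were Lrp2, Slc34a1, Slc5a12, Slc17a1, Slc22a2, Miox, Spink1, Kap, Tinag, Igfbp1, Ces1f, Ugt2b38, Cyp2d12, Fbp1, Hpd and Dnase1, of which Slc22a2, Tinag, Igfbp1 and Hpd passed the filter through sham only.

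These counts moved with the value scale and with single arrays. With log2 of the deposited signals plus 1 in place of the deposited log2 values, 0, 1 and 0 genes were called lower than sham at 4 h, 24 h and 9 days, and 4 by the F test, while the medians were -1.83, -5.65 and -4.85. Leaving out 1 array gave 1 to 5 calls at 4 h, 3 to 15 at 24 h and 1 to 19 at 9 days. The counts were 2, 4 and 5 without sham Intermediate replicate 1, the array with the high Gapdh ratio, and 1, 3 and 1 without replicate 2, and 9 and 7 for the F test. At 4 h, 14 of the 21 arrays moved the count over 1.5 times: it was 1 without 4 h Intermediate replicate 32 or 33, 2 without 4 h Intermediate replicate 30 or 9 day Low replicate 9 or 13, and 3 without any one of the 24 h arrays, 9 day Low replicate 8, 9 day Intermediate replicate 13 or 4 h High replicate 30 or 33. At 24 h it was 3 without replicate 8, 4 without replicate 9 and 15 without either sham High array. At 9 days it was 5 without replicate 8 and 3 without replicate 13. From 4 h to 24 h it was 1 without 24 h replicate 7 or 9 or 4 h Intermediate replicate 30 or 33, and 5 without either sham High array. From 24 h to 9 days all but 4 of the 21 left-out arrays ended the single call, and it became 2 without 9 day Intermediate replicate 9 or either sham High array.

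**Figure D3:**
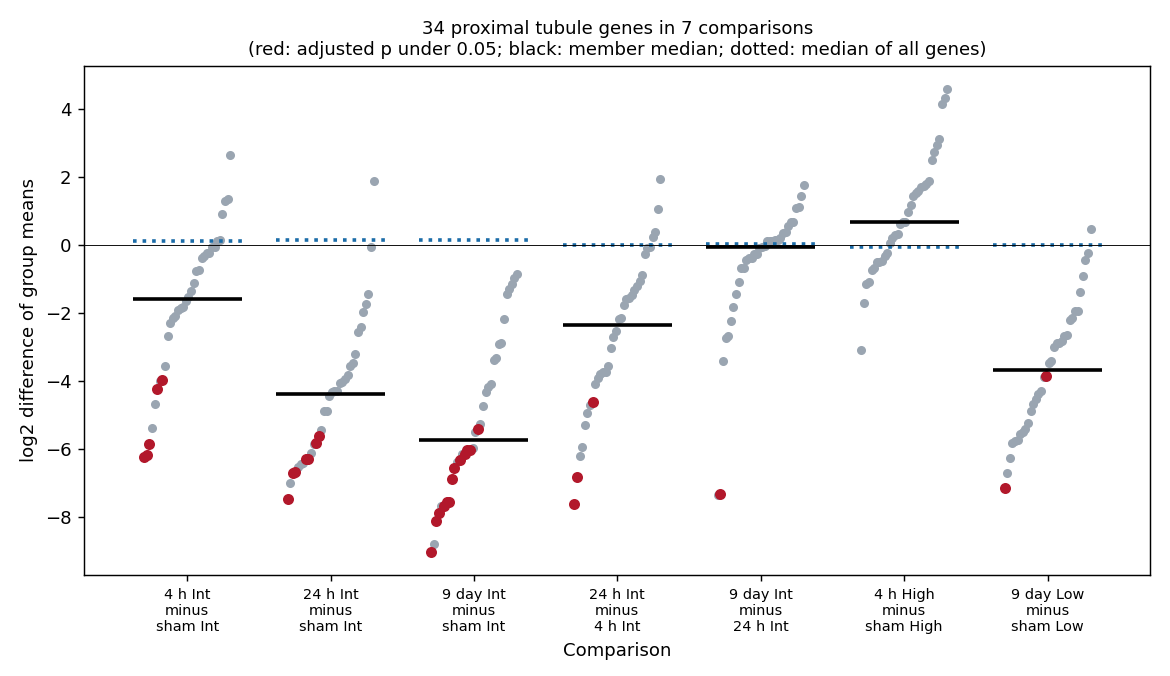
Difference of group means on the log2 scale (y axis) for each of the 34 genes in 7 comparisons (x axis); fitted also where a group had no P call; red points had an adjusted p under 0.05, the black line is the median of the 34 genes and the dotted line the median of all genes. The points sink from 4 h (median -1.58) to 24 h (-4.39) against sham Intermediate, and spread on both sides of 0 in 4 h High against sham High.

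**Figure D4:**
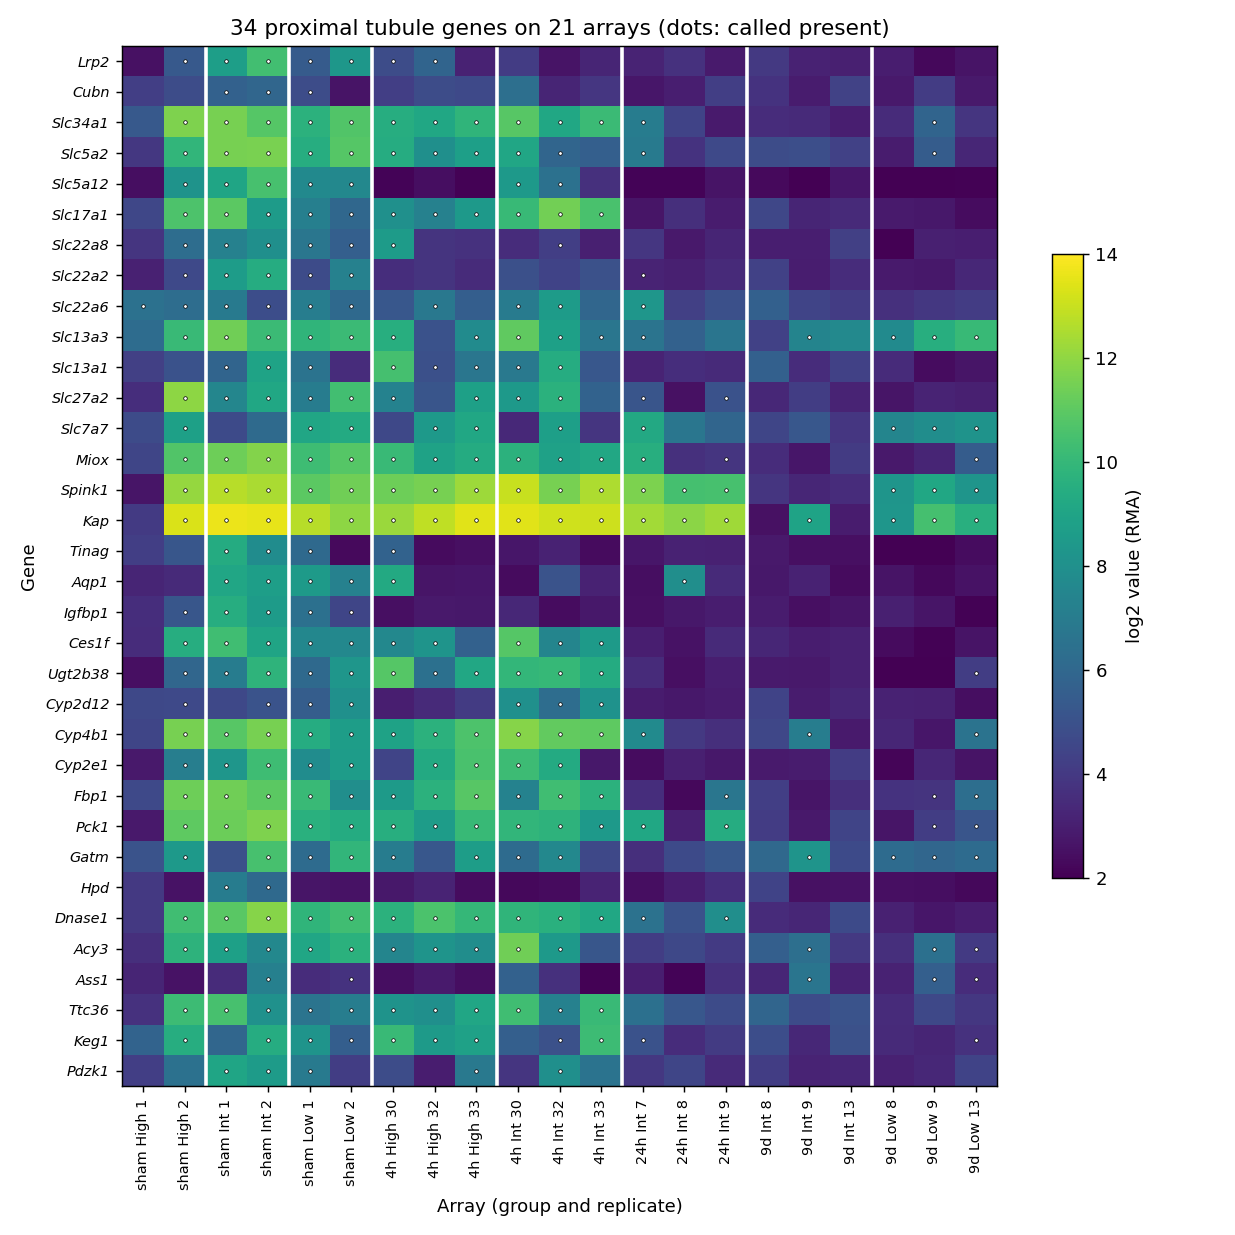
Deposited log2 values (colour) of the 34 genes (rows) on the 21 arrays (columns, in 8 groups separated by white lines); a dot marks a P call. The dots thin from 29 and 33 per sham Intermediate array to 14, 3 and 7 at 24 h, where the rows of Kap and Spink1 keep theirs on all 3 arrays.

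Of the 3 uptake and scaffold genes, Lrp2 was called at every time in the Intermediate gate. Lrp2 encodes megalin, the receptor that takes up filtered protein. Lrp2 read 8.74 and 10.36 on the sham Intermediate arrays, 5.44 and 8.36 on sham Low and 2.52 and 5.33 on sham High. At 4 h it read 4.12, 2.62 and 3.22 in the Intermediate gate and 4.80, 5.86 and 3.14 in the High gate. Its later values were 3.19, 3.73 and 2.88 at 24 h, with 2.94, 2.27 and 2.63 for Low and 3.99, 3.14 and 3.06 for Intermediate at 9 days. All 9 injured Intermediate arrays lay below both sham Intermediate arrays, and the gene was P on 2 of the 3 4 h High arrays and on no other injured array. A group with no P call has only an upper bound, so its values were raised to the dimmest P call found on that array (1.18 to 2.34) and its fold is written "at least"; the floor is near background, such a fold can equal the fitted one, and it leaves out the spread between arrays. Raised this way, the medians of the 34 genes against sham Intermediate were -1.58, -4.39 and -5.73, the same as the fitted medians. So "at least" marks a group with no P call, and the fold is an estimate, not a lower confidence limit. Group medians and the values of further probe sets are fitted differences without the floor. In limma Lrp2 was at least 75.2-fold lower (adjusted p = 0.0171) at 4 h, at least 78.0-fold lower at 24 h (adjusted p = 0.0117) and at least 71.3-fold lower at 9 days (adjusted p = 0.0198). The next brightest Lrp2 probe set gave -3.43 at 4 h and -4.54 at 24 h, and a further one was P on 1 array and did not follow.

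Pdzk1, a scaffold that holds transporters at the brush border, read 9.06 and 8.60 on the sham Intermediate arrays, 6.93 and 4.20 on sham Low and 4.21 and 6.48 on sham High. The 4 h values were 3.87, 7.99 and 6.56 in Intermediate and 4.80, 2.97 and 6.87 in High. Intermediate cells gave 3.93, 4.50 and 3.45 at 24 h and 4.17, 3.20 and 3.31 at 9 days, and 9 day Low cells 3.11, 3.36 and 4.42. P calls came from 1 array of each 4 h gate and from none at 24 h or 9 days, and sham over 24 h was at least 29.3-fold, not called (limma adjusted p = 0.0970). Cubn, which encodes cubilin, the partner of megalin, was P on 3 of the 6 sham arrays at 4.77 to 5.97 and on none of the 15 injured arrays. Its 6 sham values were 5.73 and 5.97 (Intermediate), 4.77 and 2.62 (Low) and 4.23 and 4.79 (High), and its injured values 2.71 to 6.39. The highest, on 4 h Intermediate replicate 30, was called A and lay above every sham value.

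Of the 6 sodium-coupled and anion transporters none was called at 4 h, Slc5a12 and Slc17a1 at 24 h, and Slc34a1, Slc5a2, Slc5a12 and Slc17a1 at 9 days. A difference in timing between genes was not tested. Slc5a2, not called at either time, had differences from sham Intermediate of -4.69 at 4 h and -6.46 at 24 h. Slc34a1 carries phosphate across the brush border. Slc34a1 read 11.52 and 10.85 on the sham Intermediate arrays, 9.71 and 10.76 on sham Low and 5.36 and 11.69 on sham High. Intermediate cells at 4 h gave 10.88, 9.15 and 10.18, and High cells 9.46, 9.15 and 9.87. The 24 h arrays read 7.03, 4.39 and 2.86, and the 9 day arrays 3.51, 3.41 and 2.98 (Intermediate) and 3.50, 5.89 and 3.83 (Low). All 6 arrays at 4 h and 1 of 3 at 24 h called it P, and no array at 24 h or 9 days reached a 4 h value. The difference from sham was -1.12 ± 1.44 at 4 h (limma adjusted p = 0.999) and -6.43 ± 1.44 at 24 h (adjusted p = 0.0575), and at 9 days it was at least 237-fold lower (adjusted p = 0.0223).

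Slc17a1, an anion and urate transporter of the brush border, was called lower at 24 h than at 4 h. Slc17a1 read 10.96 and 8.61 on the sham Intermediate arrays, 7.16 and 5.99 on sham Low and 4.56 and 10.64 on sham High. After 4 h of reperfusion it was at 10.08, 11.46 and 10.53 (Intermediate) and 8.03, 7.27 and 8.47 (High). From 24 h on the values were 2.66, 3.63 and 2.92, then 4.56, 3.23 and 3.44 for Intermediate and 2.89, 2.75 and 2.39 for Low at 9 days. The 3 Intermediate arrays at 4 h lay within or above the sham Intermediate values, and none at 24 h was P. It was at least 197-fold lower (adjusted p = 0.0101) at 24 h than at 4 h in limma, and at least 105-fold lower than in sham (adjusted p = 0.0250).

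Slc5a12, a sodium-coupled lactate carrier of the early tubule, was P at 4 h in the Intermediate gate alone. Slc5a12 read 9.04 and 10.49 on the sham Intermediate arrays, 7.69 and 7.58 on sham Low and 2.46 and 8.15 on sham High. The gates at 4 h gave 8.50, 6.50 and 3.65 for Intermediate and 2.10, 2.44 and 2.08 for High. By 24 h it read 2.10, 2.11 and 2.65; the 9 day gates held 1.84, 1.70 and 2.08 (Low) and 2.32, 1.54 and 2.72 (Intermediate). At 4 h it was P on 2 of 3 Intermediate arrays and on 0 of 3 High arrays, whose values lay below all 3 Intermediate values. It was at least 174-fold lower (adjusted p = 0.0197) at 24 h than in sham in limma; at 4 h Intermediate over High was at least 16.1-fold, not called (adjusted p = 0.530).

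Slc13a3, a dicarboxylate carrier of the basolateral side, stayed detected at 9 days. Slc13a3 read 11.39 and 10.19 on the sham Intermediate arrays, 9.86 and 10.18 on sham Low and 6.25 and 10.14 on sham High. At 4 h it read 11.08, 8.82 and 6.69 in the Intermediate gate and 9.54, 5.00 and 7.78 in the High gate. Its later values were 6.62, 5.71 and 6.68 at 24 h, with 7.73, 9.51 and 10.07 for Low and 4.31, 7.43 and 7.66 for Intermediate at 9 days. The 9 day Low values overlapped those of sham Low, and the gene was P on all 5 arrays of those groups (difference -0.92 ± 1.51, limma adjusted p = 1.000). Its chosen probe set is of a kind that can match other transcripts, and the next brightest gave -1.98 there. Slc5a2, the glucose carrier of the early tubule, and Slc13a1, a sulfate carrier, were P on 2 of 3 Intermediate arrays at 4 h, and on 1 and 0 of 3 at 24 h. Slc5a2 was at least 119-fold lower (adjusted p = 0.0405) at 9 days than in sham Intermediate, and a second Slc5a2 probe set gave -2.72 where the chosen one gave -6.46, at 24 h.

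The promoter windows of 4 transport and secreted genes with different courses are shown, since the letters of a tubule factor were more frequent among the members than among all genes. HNF1 factors drive many proximal tubule genes, and the core of their site was searched as GTTAAT on both strands (ATTAAC on the other) from 250 bases before to 50 after each start site in RefSeq on GRCm38.p6. Of the 27 members matched, 8 held it (29.6%), against 8.24% of 27025 genes: Dnase1, Igfbp1, Miox, Pck1, Slc22a6, Slc22a8, Slc34a1 and Slc7a7. The windows are the 100 bases before the start, 5′ to 3′ on the gene's strand, all on the plus strand, at chr11:7197687-7197786 for Igfbp1, chr13:55399548-55399647 for Slc34a1, chr19:8593082-8593181 for Slc22a8 and chr19:8617896-8617995 for Slc22a6, with the core in capitals:
Igfbp1: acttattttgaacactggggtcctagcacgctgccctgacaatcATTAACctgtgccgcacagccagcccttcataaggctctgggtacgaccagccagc
Slc34a1: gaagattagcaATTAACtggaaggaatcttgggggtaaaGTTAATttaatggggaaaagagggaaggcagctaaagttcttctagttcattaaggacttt
Slc22a8: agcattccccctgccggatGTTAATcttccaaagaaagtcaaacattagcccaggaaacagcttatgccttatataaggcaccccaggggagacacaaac
Slc22a6: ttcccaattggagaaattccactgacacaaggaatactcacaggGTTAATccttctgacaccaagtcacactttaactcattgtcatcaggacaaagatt
Slc34a1 holds the letters at 2 places, positions -61 and -89 from the start, and the other 3 at 1 place. The holders included genes called at 4 h (Igfbp1), at 9 days (Slc34a1) and in no comparison (Slc22a6, Slc22a8). The HNF4A letters CAAAGTCCA were found in Pdzk1 alone, 3.70% of the members against 0.555% of genes. A match is not a bound site, and no match says only that the letters are not in the window.

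Among the organic ion transporters, Slc22a2, the organic cation carrier, was called at every time in the Intermediate gate. Slc22a2 read 8.62 and 9.43 on the sham Intermediate arrays, 4.74 and 7.26 on sham Low and 3.11 and 4.65 on sham High. The 4 h values were 4.95, 4.42 and 4.98 in Intermediate and 3.59, 3.82 and 3.49 in High. Intermediate cells gave 3.17, 3.04 and 3.41 at 24 h and 4.31, 2.98 and 3.51 at 9 days, and 9 day Low cells 2.86, 2.79 and 3.35. P calls covered 5 of 6 sham arrays and 1 of 15 injured arrays, at 3.17, while an array of its group called absent (A) read 3.41. It passed the filter through sham groups only, so its calls are given as values and not as support for a loss. It was at least 18.9-fold lower (adjusted p = 0.0362) at 4 h in limma, with a log2 difference of -5.81 ± 0.81 at 24 h (adjusted p = 0.00409).

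The organic anion carriers Slc22a8 and Slc22a6 of the basolateral side were called in no comparison. Slc22a8 read 7.28 and 7.96 on the sham Intermediate arrays, 6.69 and 5.65 on sham Low and 3.87 and 6.31 on sham High. Intermediate cells at 4 h gave 3.55, 4.21 and 3.04, and High cells 8.60, 3.82 and 3.72. The 24 h arrays read 3.91, 2.82 and 3.25, and the 9 day arrays 3.03, 3.02 and 4.29 (Intermediate) and 1.99, 3.07 and 3.01 (Low). Slc22a8 was P on 1 array of each 4 h gate and on none later, and its difference was -4.02 ± 1.21 at 4 h (limma adjusted p = 0.299). Slc22a6 read 6.95 and 4.85 on the sham Intermediate arrays, 7.10 and 6.09 on sham Low and 6.50 and 6.31 on sham High. After 4 h of reperfusion it was at 6.99, 8.59 and 5.96 (Intermediate) and 5.27, 6.83 and 5.60 (High). From 24 h on the values were 8.30, 4.29 and 4.93, then 5.70, 4.44 and 4.14 for Intermediate and 3.67, 3.96 and 4.12 for Low at 9 days. The Slc22a6 values of sham Intermediate, 4 h and 24 h overlapped (difference -0.05 ± 1.12 at 24 h, limma adjusted p = 0.999), and it was the only member P on both sham High arrays. Its second, dimmer probe set, P on 3 arrays, gave -2.54 at 24 h, so the probe sets disagreed.

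In the water, fatty acid and amino acid group no gene was called in any comparison. Slc27a2 read 7.49 and 9.13 on the sham Intermediate arrays, 7.05 and 10.38 on sham Low and 3.56 and 11.97 on sham High. Slc27a2 activates and carries fatty acids in the late tubule. The gates at 4 h gave 8.48, 9.66 and 5.79 for Intermediate and 7.31, 5.16 and 8.82 for High. By 24 h it read 5.15, 2.56 and 5.04; the 9 day gates held 2.66, 3.18 and 3.06 (Low) and 3.32, 4.19 and 3.19 (Intermediate). P calls remained on 2 of 3 arrays at 24 h (5.15 and 5.04) and on none at 9 days (difference -4.06 ± 1.85 at 24 h, limma adjusted p = 0.485).

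Slc7a7, which exports cationic amino acids from the tubule cell and is also a macrophage gene, was P on 1 of 3 Intermediate arrays at 4 h and at 24 h. Slc7a7 read 4.68 and 6.13 on the sham Intermediate arrays, 9.10 and 9.36 on sham Low and 4.74 and 8.82 on sham High. At 4 h it read 3.40, 8.79 and 3.85 in the Intermediate gate and 4.59, 8.47 and 9.15 in the High gate. Its later values were 9.23, 6.70 and 5.92 at 24 h, with 7.45, 7.89 and 8.16 for Low and 4.51, 5.26 and 3.91 for Intermediate at 9 days. Neither sham Intermediate array called it P; it was P on both sham Low arrays and on all 3 of 9 day Low, and 24 h over sham Intermediate was at least 3.68-fold, not called (limma adjusted p = 0.860), the one difference above 0 among the 34. Aqp1, the water channel, was P on 4 of 6 sham arrays (7.26 to 9.10), on 1 of 3 4 h High arrays (9.30) and on 1 of 3 24 h arrays (7.94), and on no other injured array.

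The secreted and matrix genes held 2 of the 5 called at 4 h, Igfbp1 and Tinag. Igfbp1, which binds insulin-like growth factors, was called at 4 h, 24 h and 9 days in the Intermediate gate. Both genes passed the filter through sham groups only, so their calls had a lower injured value built in and support no loss. Igfbp1 read 9.46 and 8.59 on the sham Intermediate arrays, 6.42 and 4.52 on sham Low and 3.56 and 5.23 on sham High. The 4 h values were 3.33, 2.39 and 2.78 in Intermediate and 2.49, 2.82 and 2.76 in High. Intermediate cells gave 2.50, 2.78 and 2.94 at 24 h and 2.93, 2.51 and 2.69 at 9 days, and 9 day Low cells 3.06, 2.66 and 2.06. It was P on 5 of 6 sham arrays and on 0 of 15 injured arrays, and the highest injured value, 3.33, lay below all 6 sham values. It was at least 73.1-fold lower (adjusted p = 0.00296) at 4 h in limma, at least 77.9-fold lower at 24 h (adjusted p = 0.00121) and at least 79.6-fold lower at 9 days (adjusted p = 0.00227).

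Tinag, a basement membrane protein of the tubule, was also called at 4 h. Tinag read 9.40 and 7.83 on the sham Intermediate arrays, 6.10 and 2.31 on sham Low and 4.21 and 5.19 on sham High. Intermediate cells at 4 h gave 2.72, 3.15 and 2.37, and High cells 5.77, 2.37 and 2.50. The 24 h arrays read 2.72, 3.14 and 3.11, and the 9 day arrays 2.83, 2.49 and 2.47 (Intermediate) and 1.76, 2.00 and 2.39 (Low). It was P on both sham Intermediate arrays, through which alone it passed the filter, and on 1 of 15 injured arrays. It was at least 58.4-fold lower (adjusted p = 0.0291) at 4 h in limma and at least 49.4-fold lower at 24 h (adjusted p = 0.0275).

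Kap and Spink1 were the only members P on every 24 h array. Kap is a mouse kidney protein under androgen control, made in the proximal tubule and assigned here to its late segment. Kap read 13.66 and 13.58 on the sham Intermediate arrays, 12.69 and 11.97 on sham Low and 4.02 and 13.31 on sham High. After 4 h of reperfusion it was at 13.47, 13.14 and 13.08 (Intermediate) and 12.18, 12.83 and 13.45 (High). From 24 h on the values were 12.33, 11.89 and 12.28, then 2.52, 8.98 and 2.93 for Intermediate and 8.30, 10.46 and 9.55 for Low at 9 days. It was P on all 9 arrays of 4 h and 24 h, at 24 h between 11.89 and 12.33, and on 1 of 3 in 9 day Intermediate, the one of high yield. Its difference from sham Intermediate was -1.45 ± 1.99 at 24 h and -8.81 ± 1.99 at 9 days (limma adjusted p = 0.986 and 0.0522).

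Spink1, a secreted inhibitor of serine proteases, was P on the same arrays as Kap up to 24 h. Spink1 read 12.69 and 12.50 on the sham Intermediate arrays, 10.98 and 11.41 on sham Low and 2.67 and 12.11 on sham High. The gates at 4 h gave 12.97, 11.52 and 12.55 for Intermediate and 11.35, 11.55 and 12.22 for High. By 24 h it read 11.63, 10.46 and 10.53; the 9 day gates held 8.24, 9.16 and 8.27 (Low) and 3.87, 3.30 and 3.50 (Intermediate). It was also P on all 3 arrays of 9 day Low and on none of 9 day Intermediate. It was at least 159-fold lower (adjusted p = 0.0403) in 9 day Intermediate than at 24 h in limma, and at least 526-fold lower than in sham (adjusted p = 0.0223). On 9 day Intermediate replicate 9, at a yield of 25.5%, Spink1 read 3.30 and Kap 8.98, and Spink1 was not P there. In the Low gate the 9 day values were 8.24 to 9.16 against 10.98 and 11.41 in sham (difference -2.64 ± 1.65, adjusted p = 0.694).

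Dnase1, a secreted nuclease, was called in both 9 day gates. Dnase1 read 10.94 and 11.81 on the sham Intermediate arrays, 9.85 and 10.30 on sham Low and 4.00 and 10.32 on sham High. At 4 h it read 9.85, 9.61 and 9.14 in the Intermediate gate and 9.70, 10.60 and 10.01 in the High gate. Its later values were 6.51, 5.04 and 7.91 at 24 h, with 3.09, 2.74 and 2.96 for Low and 3.46, 3.29 and 4.71 for Intermediate at 9 days. All 6 arrays at 4 h were P at 9.14 to 10.60, 2 of 3 at 24 h at 6.51 and 7.91, and none of 6 at 9 days. It was at least 188-fold lower (adjusted p = 0.0198) in 9 day Intermediate in limma and at least 142-fold lower in 9 day Low (adjusted p = 0.0138).

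**Figure D5:**
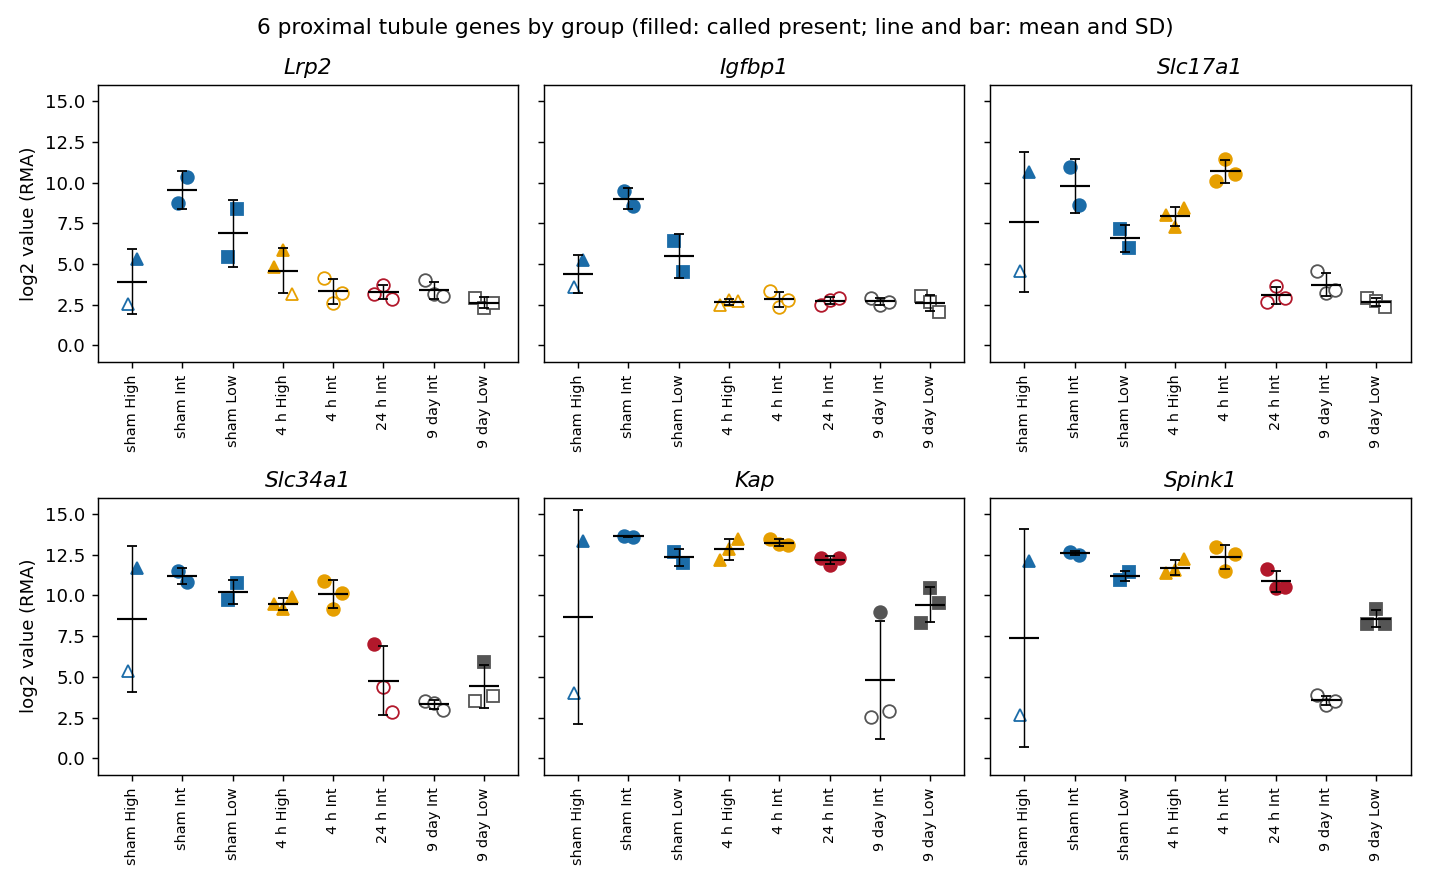
Deposited log2 values (y axis) of Lrp2, Igfbp1, Slc17a1, Slc34a1, Kap and Spink1 in the 8 groups (x axis), 1 point per array, filled where called P, with the group mean (line) and SD (bar). In the Intermediate gate (Int), Lrp2 and Igfbp1 are at or under 4.12 from 4 h on, Slc17a1 stays at 10.08 to 11.46 at 4 h and is at or under 3.63 at 24 h, and Kap and Spink1 read 10.46 to 12.33 at 24 h.

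None of the 7 xenobiotic and acyl metabolism genes was called against sham at 4 h, where their median difference was 0.10. At 24 h all 7 lay below both sham Intermediate arrays, as 8.88% of all genes did (median -5.45), Ces1f among them called, and Ugt2b38 and Cyp2d12 were called lower at 24 h than at 4 h. Ugt2b38 read 7.06 and 9.81 on the sham Intermediate arrays, 6.11 and 8.31 on sham Low and 2.47 and 5.96 on sham High. The 4 h values were 9.94, 10.06 and 9.39 in Intermediate and 10.85, 6.41 and 9.18 in High. Intermediate cells gave 3.47, 2.47 and 3.00 at 24 h and 2.88, 2.82 and 3.10 at 9 days, and 9 day Low cells 2.04, 1.84 and 4.18. Ugt2b38, a glucuronosyltransferase, was P on all 6 arrays at 4 h and on 0 of 3 at 24 h, at least 113-fold lower (adjusted p = 0.0204) in limma.

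Cyp2d12, a cytochrome P450, was P at 4 h in the Intermediate gate alone. Cyp2d12 read 4.59 and 5.08 on the sham Intermediate arrays, 5.52 and 8.03 on sham Low and 4.59 and 4.63 on sham High. Intermediate cells at 4 h gave 8.01, 6.28 and 8.12, and High cells 3.01, 3.42 and 4.09. The 24 h arrays read 2.90, 2.77 and 2.89, and the 9 day arrays 4.40, 2.93 and 3.28 (Intermediate) and 3.16, 3.12 and 2.45 (Low). It was P on 3 of 3 Intermediate and 0 of 3 High arrays at 4 h, without overlap (Intermediate over High at least 15.6-fold, not called, limma adjusted p = 0.166). At 24 h it was at least 24.5-fold lower (adjusted p = 0.0185) than at 4 h, and in 9 day Low at least 14.6-fold lower (adjusted p = 0.0379) than in sham Low.

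Ces1f is a carboxylesterase. Ces1f read 10.34 and 9.02 on the sham Intermediate arrays, 7.56 and 7.61 on sham Low and 3.53 and 9.45 on sham High. After 4 h of reperfusion it was at 10.84, 7.46 and 8.52 (Intermediate) and 7.60, 8.19 and 5.71 (High). From 24 h on the values were 3.00, 2.59 and 3.41, then 3.29, 2.96 and 3.12 for Intermediate and 2.34, 2.08 and 2.65 for Low at 9 days. P calls covered 5 of 6 arrays at 4 h and none later, and Ces1f was at least 102-fold lower (adjusted p = 0.0318) at 24 h in limma. Its probe set is of a kind that can match related esterases.

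Cyp4b1, a further P450, was called in no comparison. Cyp4b1 read 10.90 and 11.54 on the sham Intermediate arrays, 9.44 and 8.68 on sham Low and 4.49 and 11.56 on sham High. The gates at 4 h gave 11.82, 11.12 and 11.03 for Intermediate and 8.92, 9.73 and 10.63 for High. By 24 h it read 7.73, 4.00 and 3.60; the 9 day gates held 3.29, 2.71 and 6.56 (Low) and 4.56, 7.06 and 2.88 (Intermediate). The 4 h Intermediate values, 11.03 to 11.82, overlapped those of sham, and 1 of 3 arrays at 24 h was P (difference -6.11 ± 1.75, limma adjusted p = 0.141). Acy3 read 8.84 and 7.59 on the sham Intermediate arrays, 9.09 and 9.64 on sham Low and 3.62 and 9.73 on sham High. At 4 h it read 11.39, 8.47 and 5.22 in the Intermediate gate and 7.47, 8.21 and 7.91 in the High gate. Its later values were 4.17, 4.62 and 4.02 at 24 h, with 3.60, 6.44 and 4.05 for Low and 5.65, 6.38 and 4.00 for Intermediate at 9 days. Acy3, an aminoacylase of the late tubule, was P on 5 of 6 arrays at 4 h, 0 of 3 at 24 h and 3 of 6 at 9 days (sham over 24 h at least 15.4-fold, not called, limma adjusted p = 0.420). Cyp2e1, a P450 of alcohol and solvent metabolism, was P on 4 of 6 arrays at 4 h and on none later, and Keg1 on 5 of 6 at 4 h, 1 of 3 at 24 h and 1 of 6 at 9 days.

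The carbon and amino acid metabolism genes were called at different times or in no comparison, and their timing was not compared by a test. Miox, which opens the ring of myo-inositol, read 11.35 and 11.76 on the sham Intermediate arrays, 10.25 and 10.85 on sham Low and 4.49 and 10.74 on sham High. The 4 h values were 9.69, 8.86 and 9.22 in Intermediate and 10.15, 8.91 and 9.40 in High. Intermediate cells gave 9.53, 3.68 and 3.86 at 24 h and 3.54, 2.71 and 4.08 at 9 days, and 9 day Low cells 2.84, 3.22 and 5.50. The 4 h values, 8.86 to 10.15, lay below the Intermediate sham values, while at 24 h replicate 7 read 9.53 and replicates 8 and 9 read 3.68 and 3.86. Miox was at least 277-fold lower (adjusted p = 0.0332) at 9 days in limma; at 24 h the difference was -5.87 ± 1.65 (adjusted p = 0.134).

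Pck1, the gatekeeper enzyme of glucose synthesis, read 11.31 and 11.70 on the sham Intermediate arrays, 9.64 and 9.38 on sham Low and 2.82 and 11.02 on sham High. Intermediate cells at 4 h gave 9.91, 9.77 and 8.43, and High cells 9.52, 8.63 and 10.09. The 24 h arrays read 9.14, 3.07 and 9.44, and the 9 day arrays 4.15, 2.82 and 4.48 (Intermediate) and 2.67, 4.18 and 5.17 (Low). At 24 h replicates 7 and 9 read 9.14 and 9.44 and replicate 8 read 3.07, so the mice of 1 group differed widely (difference -4.29 ± 1.91, limma adjusted p = 0.470). Replicate 8 also had the lowest yield at 24 h, 10.1%, and 3 members P; the part of yield in this was not tested. Hpd, an enzyme of tyrosine breakdown, was P on the 2 sham Intermediate arrays alone (7.04 and 6.09), through which it passed the filter, so a lower value elsewhere was built in. Hpd was at least 15.6-fold lower (adjusted p = 0.0481) at 4 h in limma. Fbp1, a glucose synthesis enzyme known from macrophages too, was P on all 6 arrays at 4 h (7.31 to 10.86) and on 1 of 3 at 24 h (6.71), and was at least 205-fold lower (adjusted p = 0.0437) in 9 day Intermediate than in sham.

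Gatm, which makes the creatine precursor, and Ass1, an enzyme of arginine synthesis, are the remaining genes of the group that macrophages can express. Gatm was P on 4 of 6 arrays at 4 h, 0 of 3 at 24 h and all 3 of 9 day Low, at 5.97 to 6.20. Ass1 was P on 2 of 6 sham arrays, 0 of 9 at 4 h and 24 h, and 3 of 6 at 9 days, on 1 Intermediate and 2 Low arrays. Leaving out these 2 with Slc7a7 and Fbp1, the other 30 genes gave the same counts of calls at 4 h (5) and 24 h (7) and 12 at 9 days in the Intermediate gate, with medians of -1.59, -4.66 and -5.99. Ttc36 read 10.53 and 8.09 on the sham Intermediate arrays, 6.60 and 7.10 on sham Low and 3.69 and 10.22 on sham High. After 4 h of reperfusion it was at 10.34, 7.25 and 10.11 (Intermediate) and 8.16, 7.96 and 9.10 (High). From 24 h on the values were 6.43, 5.27 and 4.76, then 5.89, 4.74 and 5.06 for Intermediate and 3.50, 4.61 and 3.94 for Low at 9 days. Ttc36, the last gene, was P on all 6 arrays at 4 h and on no later one (sham over 24 h at least 14.2-fold, not called, limma adjusted p = 0.333).

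By calls the 34 genes were sorted into 3 classes in the Intermediate gate. 8 were P on no 4 h array of that gate: Lrp2, Cubn, Slc22a2, Tinag, Aqp1, Igfbp1, Hpd and Ass1, of which Lrp2, Slc22a2, Tinag, Igfbp1 and Hpd are the 5 called genes. 12 were P at 4 h and on no 24 h array: Slc5a12, Slc17a1, Slc22a8, Slc13a1, Ces1f, Ugt2b38, Cyp2d12, Cyp2e1, Gatm, Acy3, Ttc36 and Pdzk1. Slc22a2 and Aqp1 of the 8 were P on 1 array at 24 h. 14 were P on at least 1 array at both times, and only Spink1 and Kap of them on every 24 h array. In the High gate at 4 h, 7 genes were P on no array, and 5 of them (Cubn, Slc22a2, Igfbp1, Hpd and Ass1) were among the 8. Cubn, Igfbp1 and Hpd were P on none of the 15 injured arrays. The share of all genes in these classes was not counted, and the part of yield in them was not tested. Slc7a7 was P on 0 of 2 sham Intermediate arrays, and Ass1, Cyp2d12, Gatm and Keg1 on 1 of 2. For these 5 genes the classes do not start from full detection in sham.

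By position along the tubule, 6 members were assigned to its early segments (Slc34a1, Slc5a2, Slc5a12, Slc22a8, Slc22a6 and Gatm) and 4 to the late straight segment (Slc27a2, Kap, Cyp2e1 and Acy3). The assignment came from general knowledge, not from these data, and a gene can be made in more than 1 segment. In the Intermediate gate 91.7% of early and 100% of late calls were P in sham, 66.7% and 75.0% at 4 h, and 16.7% and 41.7% at 24 h. The median difference from sham was -2.59 for the early and -0.36 for the late genes at 4 h, and -5.36 and -4.00 at 24 h. At 4 h 3 of the 6 early and 1 of the 4 late genes lay below both sham arrays, against 8.33% of all genes. 3 of the 5 late P calls at 24 h were those of Kap. With so few genes per segment, whose members share arrays, these are values with no test.

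Comparing gates from the same kidneys, no member was called between 4 h High and 4 h Intermediate (0% of genes tested in either direction; 3 members at an unadjusted limma p under 0.05), with a median of -0.28. 5 genes lay lower in High without overlap and 0 higher, against 6.12% and 4.94% of all genes. At 9 days no member was called between Intermediate and Low (0.587% of genes were called lower in Intermediate and 0.036% higher; 3 members at an unadjusted p under 0.05). Kap had a difference of -4.63 there and Low over Intermediate was at least 31.9-fold for Spink1, neither called, and 2 of the 3 Intermediate arrays were of low yield. 10 genes lay higher in Intermediate and 3 lower without overlap, against 16.8% and 8.41% of all genes. In sham, 23 of 34 genes lay higher in Intermediate than in Low without overlap (28.1% of all genes did), with a median of 1.43, and none was called (0.036% of genes higher; 8 members at an unadjusted p under 0.05).

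Against their own sham gates, 33 of the 34 differences lay below 0 in 9 day Low and 11 in 4 h High. In 9 day Low 2 genes, Dnase1 and Cyp2d12, were called lower than in sham Low (0.683% of genes tested) and 0 higher (0.312%), the median was -3.67 and 29 genes did not overlap, against 12.1% of all genes. Both called genes were P on no 9 day Low array and passed the filter through groups where they were higher. Without the 3 arrays of low yield, none of them a Low array, 13 were called (the cause was not tested), and 9 with the probe sets of each gene averaged. The count was 0 with quantile normalization and without either sham Low array, 10 without either sham High array, 4 without 9 day Intermediate replicate 9 or 4 h Intermediate replicate 30, and 1 without 24 h replicate 8 or 9, any one of the 9 day Low arrays, 9 day Intermediate replicate 13 or 4 h High replicate 33. In 4 h High no gene was called lower than in sham High (0.012%) or higher (0.42%), with 5 members at an unadjusted limma p under 0.05. There 3 genes lay lower without overlap (16.5% of all genes). The median over all genes tested was 0.74, and over the 34 members it was 0.67. That median was -1.23 without sham High replicate 1, the array of lowest yield, and 3.22 without replicate 2, where 6 genes were called. The 2 differences between gates' effects, at 4 h and at 9 days, called no member (limma; 10 and 5 at an unadjusted p under 0.05; 0.012% and 0% of genes tested were called), and at 4 h 6 were called without sham High replicate 2 and 1 without 9 day Intermediate replicate 9. At 9 days 1 was called without either sham High array, as was 1 between 9 day Intermediate and Low, also without 9 day Intermediate replicate 9.

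Other lists put these genes in the nephron's context. Of 40 further proximal tubule genes 35 were on the array and 23 tested, and the list had medians of -0.45 at 4 h, -1.87 at 24 h and -2.17 at 9 days in the Intermediate gate. Of these, limma called 0, 1 (Folr1, a folate receptor, which passed the filter through sham Intermediate alone, at least 54.6-fold lower, adjusted p = 0.0112) and 2 lower (Folr1 and Akr1c21), and none higher. From 19 to 26 were P per sham Intermediate or Low array, 12 to 15 at 4 h, 5 to 10 at 24 h and 7 to 16 in 9 day Low. Genes of the loop of Henle and distal nephron, 16 on the array, were P 13 or 14 at a time in sham Intermediate and Low, 7 to 11 at 4 h, 3 to 5 at 24 h and 2 to 5 in 9 day Low, and their part in the members' values was not tested. Of these, Egf was called lower at 24 h than at 4 h (-7.80 ± 1.37, limma adjusted p = 0.0230), Umod in 9 day Intermediate, and Egf and Slc12a3 in 9 day Low. On the sham 58 arrays 11 to 14 of the 16 distal genes were P beside 11 to 21 of the 34 proximal ones.

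Of other cells, the 12 myeloid markers had median differences of -0.00308 at 4 h, 0.36 at 24 h and -1.38 at 9 days in the Intermediate gate, with none called. Of 11 injured tubule genes 7 were P on each sham Intermediate array and 8 on each sham Low array. Per Intermediate array 5 to 7 were P at 4 h and 4 to 7 at 24 h, with none called. Havcr1, the standard marker of an injured proximal tubule, was P on 0 of 21 arrays, as were Krt20 and Sox9. Lcn2 was P on 18, and read 12.12 and 13.20 on the sham Intermediate arrays against 12.87 to 13.59 at 24 h. Whether the P calls of this list came from tubule RNA or from the CD11b+ cells themselves was not tested. Endothelial genes were P 0 to 4 at a time of 9. The part of any of these in the loss was not tested.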

How the data were processed

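RNA of sorted CD11b+ cells was amplified and hybridised to Affymetrix whole-genome mouse arrays, per the labels' protocols, on 25 arrays. The deposited log2 values were made by the authors with RMA in Affymetrix Expression Console, per the submitters' processing notes. The authors also deposited linear signal intensities, whose 2% trimmed mean is 500 on every array, with calls of present (P), marginal (M) or absent (A). Versions are not given in the sources used here.

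Of 45101 probe sets, 34958 had 1 gene symbol, 932 several and 9211 none; only the first were used. Per gene the probe set with the highest mean log2 value over the 21 arrays was kept. The fit was a group-means model in limma 3.58.1 (R 4.3.3) over 8 groups and 8341 genes, with Benjamini-Hochberg adjustment. It was tested on simulated data. The number of arrays limits the precision. All 34 members are reported, with the values on every array for up to 12 called genes by smallest adjusted p and the 2 brightest of each role. The members and gene lists were chosen with earlier results of these data known. Replicates are the animal numbers of the labels, so gates of 1 time share animals; the correlations of their deviations were -0.0719 to 0.0601. The signals plus 1 or 100, normalization, filters, probe set means, the yield, the replicate block and leaving out arrays were tried as alternatives, signals plus 100 after seeing the data.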

Additional observations from a re-analysis of the deposited data

How the results depend on the processing

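Of the counts of the 34 genes called, those that moved over 1.5 times did so as follows. With log2 of the signals plus 1, the counts were 0 at 4 h, 1 at 24 h and 0 at 9 days against sham Intermediate, 0 for 24 h against 4 h, 0 for 9 days against 24 h, and 4 by the F test. With the signals plus 100, an alternative chosen after seeing the data, they were 1 at 4 h, 6 at 9 days, 1 for 24 h against 4 h and 2 for 9 days against 24 h. Quantile normalization gave 1 at 4 h and 0 in 9 day Low. Requiring P on every array of a group gave 3 at 4 h. For 9 days against 24 h the count was 0 with arrays centred on their medians, 0 with no filter and 2 with the yield as a covariate. No filter gave 4 in 9 day Low and 2 between sham Intermediate and Low, and averaging probe sets gave 9 and 2. Dropping the 3 low-yield arrays, the counts became 13 at 24 h, 6 for 24 h against 4 h, 13 in 9 day Low, 1 for 9 day Intermediate against Low, 1 for sham Intermediate against Low and 1 for the difference of effects at 9 days. The cause was not tested.

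Leaving out 1 array at a time gave 1 to 5 genes at 4 h, 3 to 15 at 24 h and 1 to 19 at 9 days against sham Intermediate. The range was 1 to 5 for 24 h against 4 h, 0 to 2 for 9 days against 24 h, 0 to 6 in 4 h High, 0 to 10 in 9 day Low, 0 to 1 for 9 day Intermediate against Low, 0 to 1 and 0 to 6 for the differences of effects at 9 days and 4 h, and 7 to 20 for the F test. Of the 31 single-gene values called, none of 953 recomputed values changed sign and 222 no longer passed the threshold, 29 of the 31 with the signals plus 1. With the animal as a replicate block, the counts stayed 5, 7 and 13 against sham Intermediate and 0 between gates, and no call changed. The median of the 34 genes in 9 day Intermediate was -3.55 with the signals plus 100, and in 4 h High -0.83 and -0.76 with the signals plus 1 and plus 100. Yield bounds what absence means on the 3 arrays under 5% of probe sets P.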

Other observations

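The 3 sham 58 High arrays, in no group, had 21, 14 and 11 of the 34 genes P and yields of 33.6%, 29.3% and 30.2%. Kap and Spink1 took 0.0217% to 0.0342% of the summed gene signal there. The reference RNA array, of a yield of 69.6%, had 12 of the 34 genes P and 0.0207% of its summed gene signal in them.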
